A study of Mus musculus with 2 samples.

Results

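The outer bulge is the stem cell layer that lines the resting part of the hair follicle below the sebaceous gland. Its keratinocytes are slow-cycling, lie on the basement membrane and rebuild the lower follicle when a new hair cycle begins. Lgr5, a receptor for R-spondins that raises WNT signalling, and the transcription factors Sox9, Lhx2 and Tcf7l1 are known for their part in these cells.

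The cells described here are 1588 outer bulge stem cell-like keratinocytes among 62289 barcodes of whole dorsal skin. The skin came from male C3H/HeN mice, aged 7 weeks when treatment began and 9 weeks at harvest, which were shaved and then injected under the skin every day with vehicle (Con) or with 0.5 mg of testosterone propionate (TP), which gives a model of androgenetic alopecia. Each condition was 1 droplet library of 15 pooled mice, so treatment and library cannot be told apart, no test between them was possible, and every interval covers counting error only. A further TP library with an added antibody was not analysed here.

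A barcode was a member when at least 3 of 8 selection genes had a UMI (unique molecular identifier, 1 counted RNA molecule), namely Lgr5, Slc7a2, Tbx1, Trabd2b, Abi3bp, Atp8a2, Pi15 and Gm973. It also needed a UMI of the basal keratins Krt5 or Krt14, no UMI of Krt79, a keratin of the upper follicle, and fewer than 20 UMIs of Col1a1, Col1a2 and Col3a1 per 10000, which leaves out fibroblasts. These are measured values, so what follows on the selection genes is a description. The limits left 511, 444, 375 and 357 Con barcodes in turn, and 1872, 1797, 1326 and 1231 TP barcodes.

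The libraries differed in depth. Con held 45709 barcodes with 130999979 UMIs and TP held 25931 barcodes with 166929585 UMIs. The median barcode kept had 2162 UMIs in Con and 5166 in TP, and the median member had 3362 and 4860. Barcodes with more than 10% mitochondrial UMIs were left out, 3465 in Con and 5871 in TP. Of the barcodes kept, 220 sequences occurred in both libraries, none of them a member in both. A doublet caller marked 71 Con members (19.9%) and 102 TP members (8.29%), which were kept. RNA released from broken cells was gauged in immune cells (240 Con, 528 TP) and endothelial cells (104 Con, 168 TP) with few keratin UMIs, called reference cells below.

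Outer bulge-like cells made up a larger share of the TP library. They were 357 of 42244 Con barcodes, or 0.845% (95% exact binomial interval 0.760 to 0.937%), and 1231 of 20045 TP barcodes, or 6.14% (5.81 to 6.48%). The TP share was 7.27 times the Con share (6.45 to 8.20). A rule of UMIs found favours deeper barcodes, so each barcode was also thinned to 2000 UMIs, with 18918 shallower Con and 3003 shallower TP barcodes left out. The shares were then 152 of 23326 (0.652%, 0.552 to 0.763%) and 715 of 17042 (4.20%, 3.90 to 4.51%). Among barcodes with Krt5 or Krt14 the ratio was 5.02, and between 3000 and 8000 UMIs it was 4.53. How far dissociation, the recovery of each cell type and the hair cycle stage of the pooled skin set these shares was not tested.

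**Figure D1:**
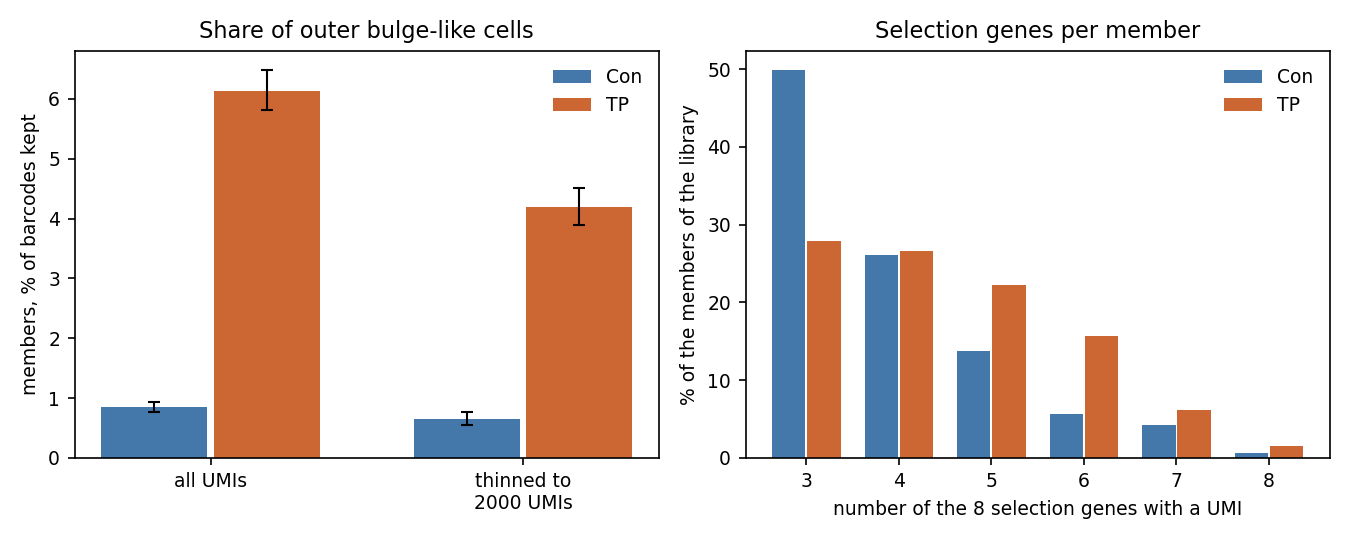
Left, outer bulge-like cells as a percentage of barcodes kept in Con (blue) and TP (orange), with all UMIs and after thinning to 2000 UMIs per barcode; bars start at 0 and error bars are 95% exact binomial intervals for counting error. Right, the percentage of each library's members by how many of the 8 selection genes had a UMI. The TP share is higher in both settings (0.845 against 6.14%, and 0.652 against 4.20%).

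More of the selection genes were found per cell in TP members, which were also deeper, with a median of 4860 UMIs against 3362 in Con. More genes are found in deeper cells, and the number per cell was not compared at equal depth. Members with exactly 3 of the 8 numbered 178 in Con and 343 in TP, while 24.1% of Con and 45.5% of TP members had 5 or more. Just outside the rule, 529 Con and 692 TP barcodes had 2 of the 8 and passed every other limit. Sox9, which the rule did not use, followed the number of selection genes in both libraries. Levels are UMIs per 1000000 UMIs of the cells described (CPM). In Con, Sox9 was at 21.7 CPM in cells with 2 selection genes, 101 with 3, 154 with 4, 211 with 5 and 285 with 6 or more. The same steps in TP were 33.0, 73.8, 140, 206 and 300.3. Barcodes near the limit of 3 therefore held Sox9 at a lower level than those far inside it. Hmcn1, which encodes a matrix protein, went from 207 to 2008 CPM in Con and from 128 to 1073 CPM in TP over the same steps.

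The defining transcription factors of the outer bulge were present in the members of both libraries. Sox9 stood at 153 CPM (95% exact Poisson interval 136 to 173) in Con members and 180 CPM (172 to 189) in TP members. In basal epidermal cells, chosen by a UMI of Ly6a, it was at 4.22 and 7.61 CPM. Lhx2 was at 150 CPM in Con and 241 CPM in TP members, against 13.6 and 13.2 CPM in basal epidermal cells. Postn, a secreted matrix protein, was at 305 and 291 CPM, against 137 and 147 CPM there. In Con, Postn was at 166 CPM with 3 selection genes, 380 with 4, 451 with 5 and 569 with 6 or more. The same steps in TP were 139, 268, 352 and 419 CPM, while Lhx2 was higher in TP at each of them. Levels over all members thus mix steps that differ in share between the libraries, and the steps were not compared at equal depth. Tcf7l1 was at 214 and 180 CPM.

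Other markers of the bulge were low or not particular to these cells. Cd34, the surface protein by which mouse bulge cells are commonly sorted, was at 23.2 CPM in Con and 19.2 CPM in TP members, with a UMI in 9.24% and 9.26% of them. Endothelial reference cells held more of it, at 116 and 109 CPM. The keratin Krt15 was at 896 and 786 CPM in members and at 1979 and 1973 CPM in basal epidermal cells. Over the same steps of selection genes Krt15 was at 527, 928, 1286 and 1798 CPM in Con members and 474, 746, 866 and 1077 CPM in TP members. Nfatc1, a transcription factor of quiescent bulge cells, was at 47.1 and 32.7 CPM, below the endothelial reference cells at 75.8 and 93.1 CPM. Of the markers outside the rule, Sox9, Lhx2, Tcf7l1 and Postn were thus above basal epidermal cells in both libraries, while Krt15 was below them. Cd34 and Nfatc1 are set beside reference cells only. After thinning, Cd34 was found in 6.55% of Con and 3.94% of TP members, against 0% and 0.70% of immune reference cells. Nfatc1 was found in 10.2% and 6.73% of members, against 5.08% and 8.12%. Lgr5, Tbx1, Slc7a2 and Abi3bp chose the members and say nothing on the label. A list of 14 bulge transcription factors summed to 5866 and 5825 CPM in members and 2589 and 2596 CPM in basal epidermal cells. The sums were 4060 and 4031 CPM in lower follicle cells, which held Edar and Ntn1. In upper follicle cells, which held Krt79, they were 2840 and 2065 CPM. Part of the excess over basal epidermal cells was thus shared with lower follicle cells.

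**Figure D2:**
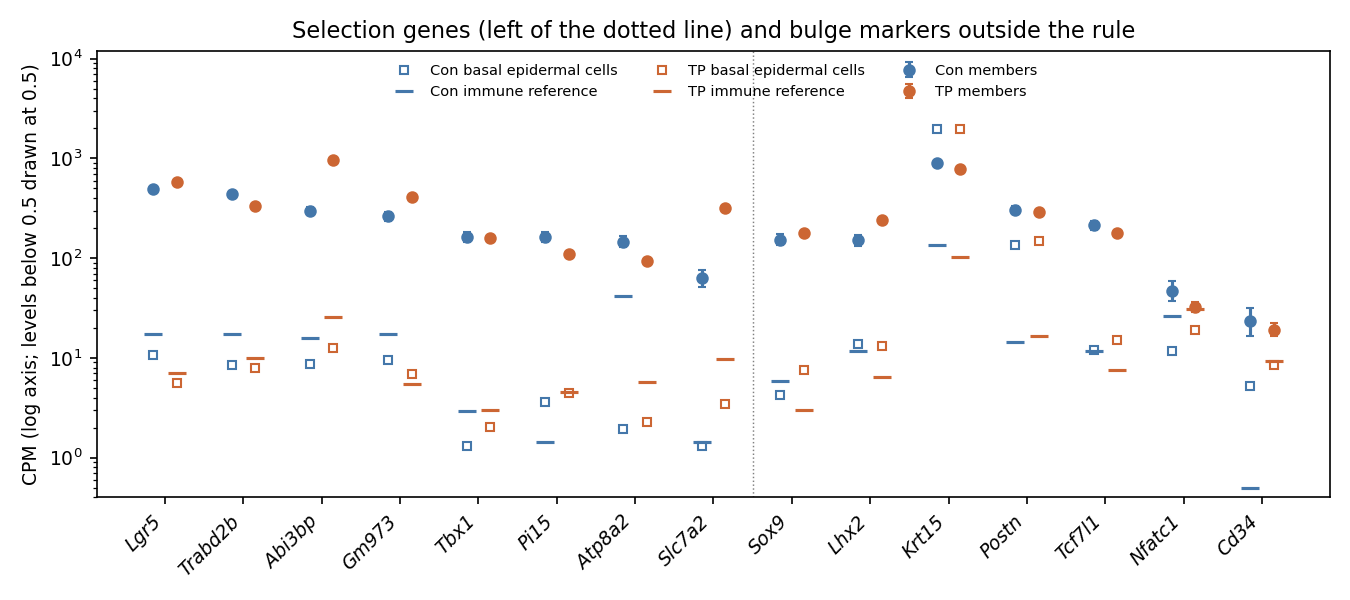
Level in CPM on a log axis of the 8 selection genes (left of the dotted line) and of 7 bulge markers outside the rule. Filled points with 95% exact Poisson intervals are members of Con (blue) and TP (orange), open squares are basal epidermal cells and short lines are immune reference cells. Sox9 and Lhx2 lie over 10 times above basal epidermal cells in both libraries, while Krt15 lies below them and Cd34 is near 20 CPM.

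Among genes outside the rule, those with the largest excess over basal epidermal cells in both libraries had varied functions. Hmcn1 was at 1065 CPM in Con and 701 CPM in TP members. Enox1, a surface oxidase, was at 342 and 350 CPM. Adamts19, a secreted protease, was at 101 and 65.6 CPM. Shisa2, which holds back maturation of WNT and FGF receptors, was at 70.3 and 46.9 CPM. The potassium channel subunit Kcnb2 was at 62.2 and 31.7 CPM, and Rims1, known for vesicle release, at 30.8 and 19.4 CPM. Nkain3 was at 44.2 and 48.1 CPM. The same group held Slc38a4 and Atp6v1b1, described below.

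Of the 8 selection genes, Slc7a2 and Abi3bp passed 2-fold between the libraries and the other 6 did not. Lgr5 was at 489 CPM in Con and 582 CPM in TP. Tbx1, a T-box transcription factor, was at 164 and 159 CPM. Trabd2b, a membrane protease that inactivates WNT proteins, was at 444 and 334 CPM. Pi15, a secreted peptidase inhibitor, was at 163 and 109 CPM, the lipid flippase Atp8a2 at 146 and 92.8 CPM, and the gene model Gm973 at 262 and 408 CPM.

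Slc7a2, which imports cationic amino acids such as arginine (chromosome 8, 40862341 to 40922070, RefSeq annotation of GRCm38.p6), was at 62.8 CPM in Con members (51.5 to 75.8). TP members held 316 CPM (304 to 328), which gave a ratio of 5.03 (4.15 to 6.16). Abi3bp, a matrix protein (chromosome 16, 56477801 to 56690135), was at 297 CPM in Con (272 to 324) against 953 CPM in TP members (933 to 973), and the ratio was 3.21 (2.93 to 3.51). After thinning, Slc7a2 had a UMI in 11.6% of 275 Con and 31.5% of 1040 TP members, against 0.847% and 2.09% of immune reference cells. Abi3bp had one in 31.6% and 42.6% of members, against 2.54% and 2.55%. Endothelial reference cells held Abi3bp at 124 and 358 CPM.

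Slc7a2 and Abi3bp were both used to choose the members, so their levels within them are given as a description. In barcodes thinned to 2000 UMIs their log levels had a Pearson correlation of 0.34 over 275 Con members and 0.57 over 1040 TP members, cells that share a library and sparse counts. Both genes had a UMI in 38 Con members (10.6%, 7.64 to 14.3%) and 439 TP members (35.7%, 33.0 to 38.4%). Neither had one in 165 Con members (46.2%) and 367 TP members (29.8%). Members with both were deeper, with median UMIs of 4774 and 6201 against 3025 and 3466 with neither. After thinning, both genes were found in 5.82% (3.36 to 9.28%) of Con and 21.7% (19.3 to 24.4%) of TP members. The split was chosen after these values were seen, and a member with both needs only 1 more selection gene, so the levels of the other 6, and of genes that go with them across cells, are partly set by the rule. In TP, 2 or more of Trabd2b, Atp8a2 and Pi15 were found in 23.5% of members with both genes and in 61.9% with neither, and in Con in 34.2% and 64.2%.

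As a description of these classes, levels of the other genes were compared. Of 3751 genes with enough UMIs spread over enough cells, 13 were at least 2-fold higher with both Slc7a2 and Abi3bp in each library and 17 were at least 2-fold lower. In Con alone the counts were 45 and 83, and in TP alone 40 and 80. Among the higher genes, the Ras exchange factor Rasgef1b was at 224 CPM with both and 39.1 CPM with neither in Con, and at 359 and 67.3 CPM in TP. Adamts9, a secreted protease, was at 412 and 68.0 CPM in Con and at 441 and 130 CPM in TP. Fras1, which together with Frem2 anchors epithelium to the basement membrane, was at 211 and 85.4 CPM in Con and at 360 and 71.6 CPM in TP. Cgnl1, Lifr, Man1a, Lmo1, Thsd4, Ptprj and Hip1 had the same direction.

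The lower genes included proteins of cell contact and guidance. The gap junction protein Gjb2 was at 80.7 CPM with both and 255 CPM with neither in Con, and at 25.8 and 196 CPM in TP. Slit3, a secreted guidance cue, was at 354 and 935 CPM in Con and at 136 and 623 CPM in TP. Sema3e, a semaphorin, was at 76.2 and 208 CPM in Con and at 43.6 and 236 CPM in TP. Efnb2 and Ephb1, an ephrin and an ephrin receptor, were lower as well, as were the zinc transporters Slc39a10 and Slc30a1, and Myof, Rflnb, Tns4, Fmn1 and Cdh13. How far the rule sets these differences was not tested.

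Bulge markers did not share 1 order between the classes. Sox9 was at 108 CPM with both and 181 CPM with neither in Con, and at 137 and 258 CPM in TP. Krt15 was at 636 and 1131 CPM in Con and at 648 and 1154 CPM in TP. Postn was at 345 and 369 CPM in Con and at 216 and 439 CPM in TP. Lhx2 was at 161 and 181 CPM in Con and at 304 and 207 CPM in TP. Lgr5 was at 806 and 467 CPM in Con and at 618 and 604 CPM in TP.

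**Figure D3:**
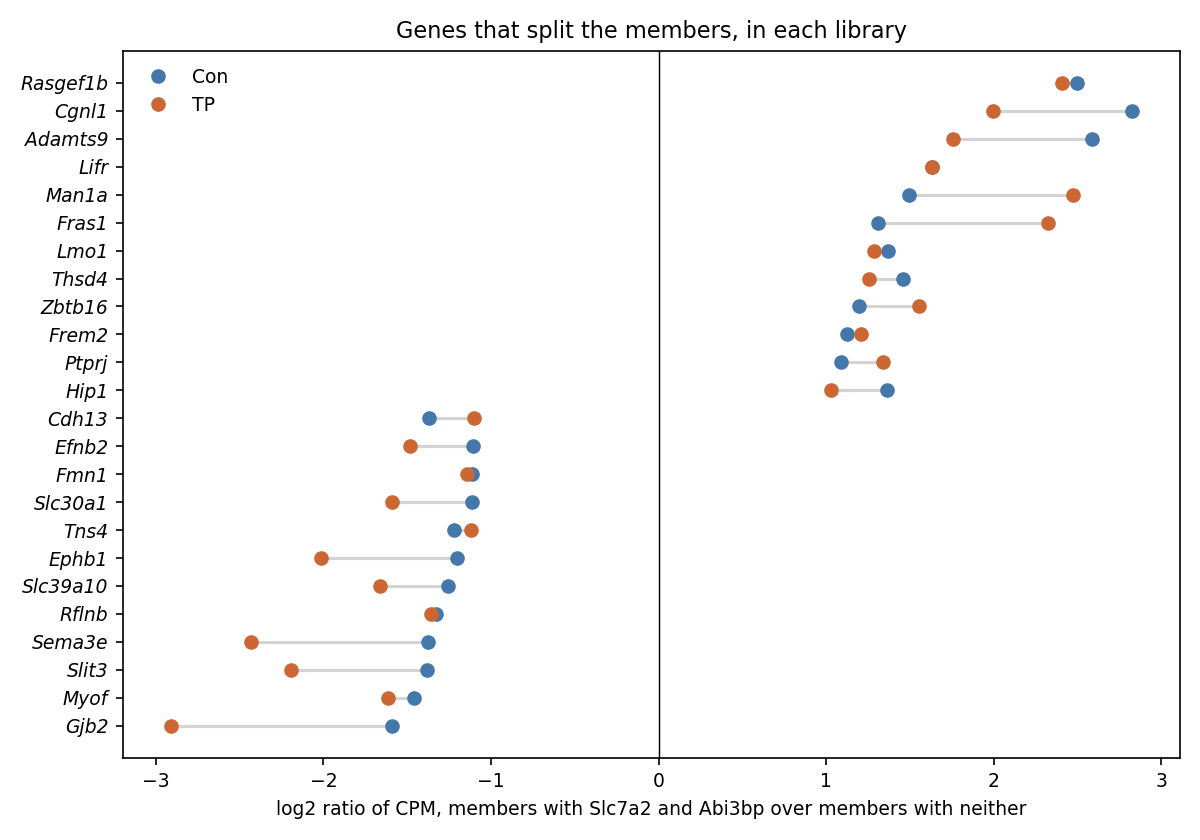
log2 ratio of CPM between members that have a UMI of both Slc7a2 and Abi3bp and members that have neither, for the 12 genes furthest apart in each direction, in Con (blue) and TP (orange). Positive values are higher with both genes. The 38 and 439 members with both genes hold more Rasgef1b, Cgnl1 and Adamts9 and less Gjb2, Slit3 and Sema3e in each library.

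Across all genes, 322 of 11422 tested (2.82%) were at least 2-fold higher in TP members and 478 (4.18%) at least 2-fold lower, with a median log2 ratio of -0.13. Scaling by the trimmed mean of M values instead of total UMIs turned this split to 525 higher and 309 lower and the median to 0.06. In the TP or Con library where the gene was higher, at least one reference type held it at or above the level of the members for 168 of the 322 and 252 of the 478. That leaves free RNA and shared changes among cell types beside each of those genes, and its part in the counts was not tested. Without each gene's highest 1% of members, 265 of the 322 and 449 of the 478 still passed 2-fold. This step leaves no Con UMI for a gene in 4 or fewer Con members, and no TP UMI for a gene in 13 or fewer TP members.

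Zbtb16, a zinc-finger transcription factor and a common target of steroid receptors, was higher in TP over many members (chromosome 9, 48651797 to 48836225). Con members held 72.1 CPM (60.0 to 85.9) and TP members 391 CPM (378 to 404), so that the ratio was 5.42 (4.53 to 6.54). A UMI was found in 73 Con and 718 TP members, and the 5 highest cells held 6.39% of the TP UMIs. Without the highest 1% of members its ratio was 5.83, beside 6.66 for Slc7a2 and 6.27 for Atp6v1b1. After thinning it was found in 12.4% of Con and 39.5% of TP members, against 0% of 118 and 5.80% of 431 immune reference cells. With 3 counts taken as the limit for a count of 0, 0 of 118 allows up to 2.54%. Basal epidermal cells went from 52.3 to 139 CPM, so the gene was higher in TP there too. Within the members with both Slc7a2 and Abi3bp the ratio was 4.81 (3.36 to 7.14), and with neither it was 3.70 (2.69 to 5.23). In thinned TP members its log level had a Pearson correlation of 0.51 with that of Abi3bp and 0.40 with that of Slc7a2, against 0.23 and 0.13 in Con.

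Slc38a4 and Atp6v1b1, which were also among the genes in excess over basal epidermal cells, passed 2-fold in many TP members. Slc38a4, an amino acid transporter, was at 33.1 CPM in Con and 87.7 CPM in TP, a ratio of 2.65 (2.02 to 3.53), and endothelial reference cells held 15.2 and 22.2 CPM. Atp6v1b1, a subunit of the proton pump V-ATPase, was at 12.2 and 53.7 CPM, a ratio of 4.40 (2.85 to 7.17), and had no UMI in the reference cells of either library. Its level differed by class as well, at 58.2 CPM with both Slc7a2 and Abi3bp and 2.89 CPM with neither in Con, and at 81.4 and 20.3 CPM in TP. Within the class with both genes the TP over Con ratio of Atp6v1b1 was 1.40 (0.805 to 2.66) and that of Slc38a4 was 1.87 (1.17 to 3.18).

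Many of the largest ratios were of genes whose TP UMIs lay mostly in 5 members. Gpc5, a heparan sulfate proteoglycan, had 2 UMIs in Con members and was at 118 CPM in TP, with 66.0% of its TP UMIs in 5 cells. Dkk2, a secreted WNT modulator, was at 9.30 and 74.2 CPM with 80.7% in 5 cells, and Igfbp3, which binds insulin-like growth factors, at 18.0 and 180 CPM with 77.3%. Without the highest 1% of members, 4 in Con and 13 in TP, the ratio of Igfbp3 was 1.01. With the pseudocount of 1, Dkk2, Sprr1a and Ccl8 had log2 ratios of 0.44, 1.95 and 2.69, so Dkk2 no longer passed 2-fold. Their Con UMIs had lain in only 5, 9 and 6 members, and Dkk2 and Ccl8 kept 0.594 and 1.19 CPM in Con. Gpc5, Krt16, Aspn, Pcdh15 and Cstdc5 had Con UMIs in no more than 4 members, so this step had to leave none. Their log2 ratios of 3.70, 4.97, 4.13, 3.30 and 4.53 then rest on the pseudocount. The stress and cornification genes Krt6b, Krt16, Sprr1a and Sprr1b had between 77.0% and 93.3% of their TP UMIs in 5 cells. Krt6b had no Con UMI and was at least 16.1-fold higher against a floor of 3 UMIs over all Con members. Between 3000 and 8000 UMIs the log2 ratios of Dkk2 and Slc26a7 were -2.08 and -0.17. Ccl8, Slc26a7 and Aspn showed the same concentration, at 82.9%, 81.1% and 64.8%. Pcdh15 and Cstdc5 were at 54.3% and 52.4%. After thinning, Ccl8 was found in 0.36% of Con and 3.46% of TP members, against 17.8% and 52.4% of immune reference cells.

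**Figure D4:**
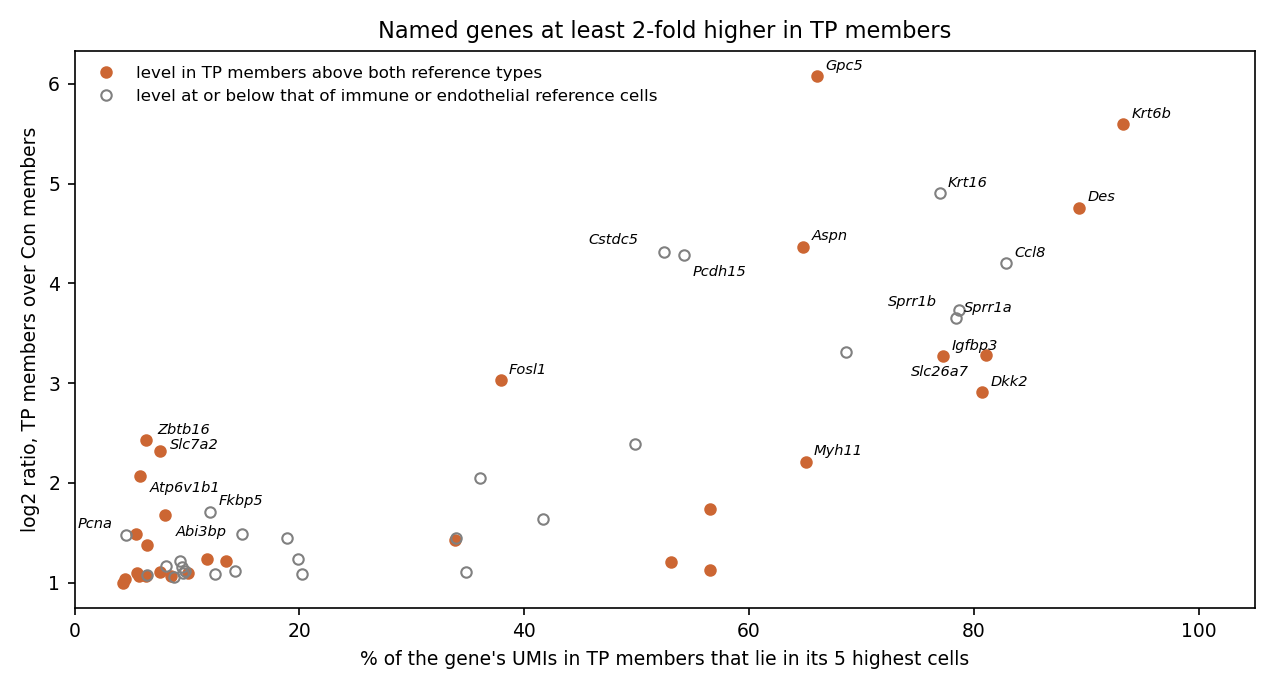
log2 ratio of TP over Con members against the percentage of a gene's UMIs in TP members that lie in its 5 highest cells, for the named genes at least 2-fold higher in TP members. Filled points are above both reference cell types in TP and open points are at or below one of them. Zbtb16, Slc7a2, Atp6v1b1 and Abi3bp lie at the left, spread over many cells, while Gpc5, Krt6b, Des and Dkk2 lie at the right with more than 60% of UMIs in 5 cells.

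Several of the largest falls were also seen in reference cells, and others had most of their Con UMIs in 5 members. Cdh6, a cadherin, was at 649 CPM in Con and 48.9 CPM in TP members, and at 549 and 61.7 CPM in immune reference cells. Scube2 was at 80.2 and 10.7 CPM and the kinase Hunk at 145 and 25.4 CPM, with immune reference cells at 42.0 and 2.16 CPM and at 125 and 19.7 CPM. Nrg2, Dcc, Csmd1, Ndnf, Corin and Itga9 had between 66.0% and 92.4% of their Con UMIs in 5 members. Without the highest 1% of members these 6 genes were still lower in TP, at ratios between 0.075 (Corin) and 0.238 (Csmd1), while Csmd1 was at a log2 ratio of 0.47 after thinning. Krt73, a keratin of the inner root sheath, was at 261 and 48.6 CPM, and the 5 inner root sheath genes together at 2555 and 707 CPM. Immune reference cells held 4285 and 2880 CPM of these 5 genes. After thinning, 2 or more of their UMIs were found in 74.2% of Con members and 75.4% of Con immune reference cells, and in 22.6% and 19.3% in TP.

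Markers of other cell types differed in level within the members. All 5 immune markers together (Ptprc among them) were at 12.8 CPM in Con and 8.65 CPM in TP, with none at 0. The 5 fibroblast markers were at 190 and 188 CPM, the 5 endothelial markers at 55.8 and 34.3 CPM and the 5 Schwann cell markers at 20.9 and 17.2 CPM. Of the collagens that the rule limits, Col1a1 and Col1a2 passed 2-fold higher, beside 2.82% for all genes, and Col3a1 did not. Col1a1 had 29 Con and 437 TP UMIs in members, and Col1a2 had 69 and 777. After thinning, Col1a1 was found in 3.27% of Con and 9.52% of TP members, against 6.78% and 13.5% of immune reference cells. Col1a2 was found in 4.0% and 11.9% of members, against 5.1% and 20.4%. The 5 melanocyte markers were at 170 and 51.7 CPM and all 5 passed 2-fold lower, beside 4.18% for all genes. Immune reference cells held 162 and 31.1 CPM of these markers and endothelial ones 452 and 23.1 CPM. The 5 muscle markers were at 223 and 639 CPM, against 55.2 and 48.4 CPM in basal epidermal cells, and 4 of 4 tested passed 2-fold higher (Acta2, Myh11, Tagln and Des). Muscle UMIs lay in few members, with 2 or more in 18 Con (5.04%) and 61 TP members (4.96%), and 77.0% and 57.3% of them in 5 cells. After thinning, the median log2 ratio of the muscle list was -1.97, the value of Tagln, and Acta2 was at -1.18. Genes needed at least 50 UMIs there too, so the turn is that of Tagln and Acta2 and not of the whole list. The 5 suprabasal genes, Krt1, Krt10, Krtdap, Sbsn and Lor, summed to 5067 and 8639 CPM, and 2 of them passed 2-fold higher (Krt1 and Lor), beside 2.82% for all genes. Immune reference cells held 5796 and 24778 CPM of these genes. After thinning, 2 or more of their UMIs were in 95.9% of TP members and 97.4% of TP immune reference cells. The cortex keratins passed 2-fold lower in 3 of 3 tested, with a sum of 282 and 81.2 CPM in members and 244 and 43.5 CPM in immune reference cells. The companion layer keratin Krt75 was at 22.7 and 7.65 CPM, against 23.2 and 10.3 CPM in immune reference cells. Of 5 upper follicle markers, 2 were higher (Klk10 and Plet1), beside 2.82% for all genes. The upper follicle list summed to 157 and 263 CPM in members and to 367 and 745 CPM in immune reference cells. Klk10 had 3 UMIs in Con and 69 in TP members, with 56.5% of its TP UMIs in 5 cells. None of 5 germ and matrix markers passed.

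Of 56 bulge regulators, surface, matrix and adhesion genes tested, 3 passed 2-fold, all lower, beside 2.82% higher and 4.18% lower over all genes. Of 13 bulge transcription factors tested none passed in either direction, and their median log2 ratio was -0.10. Nfib, which keeps bulge cells from precocious differentiation, was at 1568 and 1682 CPM and Trp63, the master factor of stratified epithelium, at 872 and 1005 CPM. Among 16 bulge surface and matrix genes only the glutamate transporter Slc1a3 passed, lower at 64.5 and 20.3 CPM. Ptn, a secreted growth factor, was at 299 and 519 CPM. Of 27 basement membrane and hemidesmosome genes, Col4a3 and Col4a4 passed lower, at 11.6 and 3.66 CPM and at 20.9 and 10.1 CPM. Col17a1, the hemidesmosome collagen that anchors follicle stem cells, was at 414 and 308 CPM.

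Hedgehog signalling is received through Ptch1, which is also transcribed in response to it. Ptch1 was at 244 CPM in Con and 454 CPM in TP members, a ratio of 1.86 (1.68 to 2.06), and the effectors Gli1 and Gli2 were at 43.6 and 67.1 CPM and at 226 and 320 CPM. Endothelial reference cells also held more Ptch1 in TP, at 98.5 and 403 CPM, while immune ones held less, at 89.9 and 62.2 CPM. Within the class with both Slc7a2 and Abi3bp the TP over Con ratio of Ptch1 was 1.96 (1.53 to 2.55), and with neither gene it was 1.40 (1.17 to 1.68). The ligand Shh was at 12.8 and 7.10 CPM and the inhibitor Hhip at 132 and 66.2 CPM, and none of these 5 genes passed 2-fold.

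Of 34 WNT genes tested, 2 were higher and 3 lower, beside the 2.82% and 4.18% over all genes, with a median log2 ratio of -0.37. Lgr6, an R-spondin receptor of other follicle stem cells, was at 82.0 and 165 CPM, a ratio of 2.01 (1.69 to 2.41), and Dkk2 was the concentrated gene given above. Fzd5, Nkd2 and Notum were lower, at 25.6 and 8.87, 72.1 and 27.5, and 26.7 and 9.32 CPM. After thinning the log2 ratio of Notum was 1.23, a value that rests on few UMIs. Of the members chosen at full depth, only 2 of 275 in Con and 14 of 1040 in TP then had a UMI of it. Axin2, a common target of the pathway, was at 40.7 and 24.7 CPM and Lef1 at 492 and 278 CPM, with immune reference cells at 367 and 63.3 CPM of Lef1. Sfrp1 and Wif1, secreted inhibitors of WNT, were at 402 and 253 CPM and at 399 and 204 CPM. The 5 highest cells held 80.8% of the Con UMIs of Wif1, and without its highest 1% of members it was at 119 and 64.7 CPM. For Notch, 2 of 9 tested genes were lower and none higher, beside 4.18% lower over all genes, with a median of -0.80. Notch1 was at 256 and 104 CPM, and immune reference cells went from 187 to 68.2 CPM.

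The counts in the BMP, FGF, EGF and IGF lists stand beside 2.82% higher and 4.18% lower for all genes. In the BMP list of 15 tested genes, Id1 was higher at 52.9 and 111 CPM and Bmp6 and Smad6 lower at 128 and 41.1 CPM and at 41.9 and 17.5 CPM. Between 3000 and 8000 UMIs the log2 ratio of Bmp6 was 0.0493, against -1.64 over all members. BMP signals are known to keep bulge cells at rest, and their receptor Bmpr1a was at 248 and 211 CPM. In the FGF list of 12, the responsive genes Dusp6 and Etv4 were higher, at 15.1 and 34.9 CPM and at 27.3 and 58.2 CPM. The ligands Fgf5, which ends the growing phase of the hair cycle, Fgf7 and Fgf10 were lower, at 30.8 and 4.10, 175 and 60.7, and 104 and 28.3 CPM. The 5 highest cells held 59.8% of the Con UMIs of Fgf7 and 53.1% of those of Fgf10, and without the highest 1% of members these genes were at 85.4 and 15.1 CPM and at 58.0 and 5.42 CPM. After thinning, Fgf7 was found in 10.9% of Con members and 7.63% of Con immune reference cells, and Fgf10 in 5.82% and 6.78%. Fgf7 is known as a gene of the dermal papilla, as is Corin, whose UMIs in Con members were concentrated in the same way. None of 17 TGF-beta genes passed in either direction. The EGF and IGF list had 3 of 12 higher, namely Areg and Ereg with few UMIs and Igfbp3, whose ratio was 1.01 without the highest 1% of members.

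Of 18 steroid-responsive genes, 2 were higher and 1 lower, where all genes gave 2.82% and 4.18%, with a median of 0.56. Beside Zbtb16, Fkbp5, a co-chaperone of steroid receptors, was at 25.6 and 85.6 CPM, a ratio of 3.35 (2.47 to 4.65). Its level in TP members did not exceed that of endothelial reference cells at 126 CPM, and immune reference cells held 46.4 and 77.9 CPM. The mineralocorticoid receptor Nr3c2 was lower, at 47.7 and 23.5 CPM, with 53.7% of its Con UMIs in 5 cells. Without the highest 1% of members the log2 ratio of Nr3c2 was -0.73, no longer past 2-fold. After thinning, Nr3c2 was found in 5.82% of Con and 3.17% of TP members, against 5.1% and 7.89% of immune reference cells. Klf9, another steroid target, was at 53.5 and 108 CPM. The metallothioneins Mt1 and Mt2 were at 667 and 1091 CPM and at 387 and 662 CPM.

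Of 25 cell cycle genes, 5 were past 2-fold higher in TP members and none lower, beside 2.82% and 4.18% of all genes, with a median of 0.67. Pcna, the replication clamp, was at 55.8 and 158 CPM, a ratio of 2.83 (2.30 to 3.51), with reference cells between 65.2 and 71.9 CPM. Cdk1, Ccna2, Tyms and Uhrf1 were the others, with Ccna2 at a log2 ratio of -0.30 between 3000 and 8000 UMIs. Mki67 and Top2a, which mark dividing cells, were at 366 and 406 CPM and at 344 and 426 CPM. The list summed to 1809 and 2594 CPM, against 1560 and 580 CPM in immune reference cells. Before thinning, 76.5% of Con and 65.6% of TP members had 2 or more UMIs of the list. After thinning, 57.5% (51.4 to 63.4%) of Con and 53.2% (50.1 to 56.2%) of TP members had 2 or more of its UMIs, against 55.1% and 20.2% of immune reference cells. The thinned share in Con members was thus near that of immune reference cells. None of 12 genes for G1 cyclins and their inhibitors passed.

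Immediate-early genes, which respond to dissociation and stress, were higher in TP in the members and in immune and endothelial reference cells. Of 24 immediate-early genes, 10 passed higher and none lower, against 2.82% and 4.18% for all genes, with a median of 0.98 and a sum of 4303 and 8687 CPM. Immune reference cells went from 4428 to 12720 CPM and endothelial ones from 6632 to 10357 CPM. Fos was at 813 and 1886 CPM in members. Of 13 heat shock genes none passed, with sums of 5154 and 6847 CPM in members, 4537 and 7673 CPM in immune reference cells and 6998 and 6778 CPM in endothelial ones. The stress keratin list had 5 of 7 higher, beside the same 2.82%, with a median of 3.65, the same with Krt6b at its bound. Of these 5, Krt6b, Krt16, Sprr1a and Sprr1b had most of their TP UMIs in 5 cells, and Stfa1 had 48 TP UMIs and was at -0.23 after thinning. Among members chosen at full depth, thinned Stfa1 was found in 0% of Con and 1.15% of TP members. Krt16 had a UMI in 162 TP members, and after thinning in 4.52% of TP members against 5.34% of immune reference cells. Krt17, a keratin of the outer root sheath, was at 817 and 1260 CPM.

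Of 47 cytokine, antigen presentation, interferon and glycolysis genes tested, 5 passed higher and 1 lower, beside 2.82% and 4.18% over all genes. Of 15 chemokine and cytokine genes, Cxcl1, Cxcl10 and Cxcl16 passed higher, each below 10 CPM; the log2 ratio of Cxcl16 was -0.0115 after thinning and that of Cxcl1 was -0.0457 with a pseudocount of 10. Cxcl14 was at 362 and 222 CPM and Cxcl12 at 48.2 and 42.7 CPM. In the antigen presentation and interferon list of 16, Irf1 was higher and Isg15 lower. B2m, the light chain of MHC class I, was at 301 and 404 CPM in members against 1048 and 1403 CPM in basal epidermal cells, and H2-K1 at 209 and 247 CPM against 678 and 850 CPM. Of 16 glycolysis genes only Gapdh passed, at 194 and 397 CPM. The 81 ribosomal protein genes had a median log2 ratio of 0.41 with none past 2-fold.

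**Figure D5:**
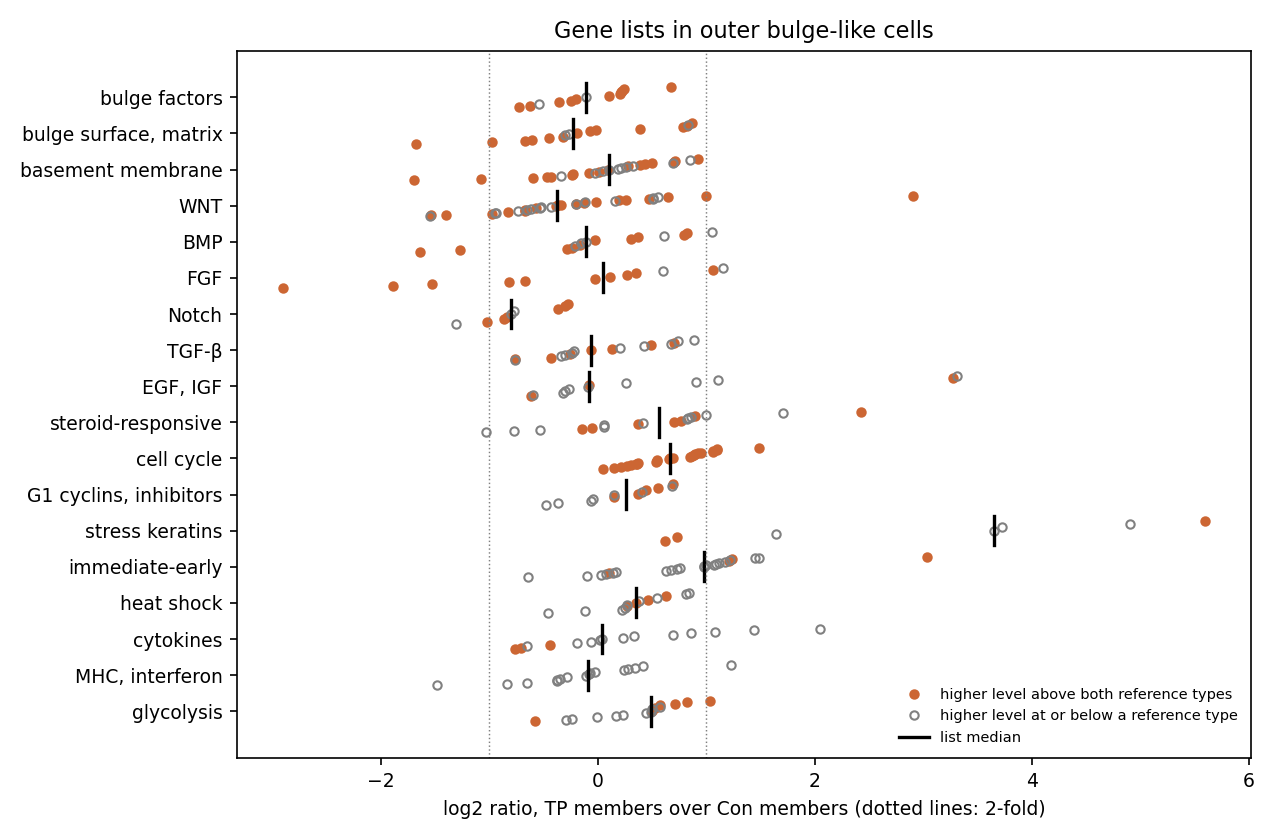
log2 ratio of TP over Con members for each tested gene of 18 lists; dotted lines mark 2-fold and black bars the list medians. Filled points are genes whose higher level in the members is above both reference cell types of that library, and open points are at or below one of them. Beside the all-gene median of -0.13, the medians of stress keratins (3.65), immediate-early (0.98), cell cycle (0.67), steroid-responsive (0.56), glycolysis (0.49) and heat shock genes (0.36) lie furthest to the right and that of Notch genes (-0.80) furthest to the left.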

How the data were processed

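Whole dorsal skin was measured with 10x Genomics 3′ single-cell RNA-seq. The authors' deposited files hold raw UMI counts per gene and barcode, made with Cell Ranger 8.0.1 on the mm10 reference, with no later filter. Barcodes with 200 to 8000 genes and at most 10% mitochondrial UMIs were kept. The members, classes and gene lists were chosen with earlier results of these data known. Members' UMI counts were summed per library and divided by their total (1720480 in Con, 9015966 in TP) to give CPM. Intervals (95%) are exact Poisson, Clopper-Pearson and conditional binomial ones. log2 ratios used a pseudocount of 1 UMI, and genes with at least 50 UMIs in members of both libraries together were tested; called means at least 2-fold. Basal epidermal cells held Ly6a with Krt10 below 20 per 10000 and at most 1 selection gene. Reference cells held at least 2 markers of their type and fewer than 20 UMIs of Krt5 and Krt14 per 10000. Doublets were scored with simulated doublets and the highest 7.5% marked. After thinning, correlations and the percentages of members with a gene used the 275 Con and 1040 TP members chosen at full depth. Log2 ratios and counts of called genes used 152 Con and 715 TP members chosen anew from the thinned counts.

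Named were the genes of the rule, the 10 largest rises and falls among genes with at least 200 UMIs, the list genes past 2-fold or the 4 highest of a list, and the 10 genes with the largest excess over basal epidermal cells. Genes of the Slc7a2 and Abi3bp classes, and other list genes given as values (Axin2, Gli1, Klf9, Shh, Hhip and Ptprc), were chosen after their values were seen; eligible genes of the classes had at least 200 TP and 50 Con UMIs, with at most 30% in 5 cells. The steps were tested on simulated counts. Python 3.11.15, NumPy 2.4.6, SciPy 1.17.1, pandas 2.3.3, scikit-learn 1.9.0, matplotlib 3.10.9, R 4.3.3 and edgeR 4.0.16 (scaling factors only) were used. Some results are not reported here.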

Additional observations from a re-analysis of the deposited data

How the results depend on the processing

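No paired analysis was possible because each condition was 1 library. The share of members was higher in TP under every alternative run. Its ratio was 4.57 with at least 2 of 8 selection genes, 10.4 with at least 4, 6.44 after thinning, 4.53 between 3000 and 8000 UMIs, 8.32 without doublet calls and 5.02 per barcode with Krt5 or Krt14. The counts of genes 2-fold higher and lower were 322 and 478 of 11422 tested, and the number tested changed with the setting. They became 525 and 309 of 11422 with TMM factors and 99 and 916 of 11422 with a pseudocount of 10. Thinning gave 160 and 195 of 6117, and the range of 3000 to 8000 UMIs gave 191 and 226 of 8365. No minimum of UMIs gave 613 and 4951 of 20093, and a minimum of 200 gave 158 and 165 of 7808. Of 101 named genes past 2-fold, 34 were still past it after thinning and 50 between 3000 and 8000 UMIs. There a gene also had to keep at least 50 UMIs, so a gene lost may only have been too sparse.

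Alternatives chosen after seeing the data gave 494 higher and 678 lower genes of 11422 without each gene's highest 1% of members. Of 9737 genes tested, 214 were higher and 291 lower without members with 2 or more UMIs of the fibroblast, immune, endothelial, Schwann or muscle list. There 55 named genes were past 2-fold, again with at least 50 UMIs needed. Requiring 3 of 6 selection genes without Slc7a2 and Abi3bp gave a share ratio of 7.46. Leaving out members with any other marker list gave no value, since 0 Con members and 1 TP member remained.

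Some log2 ratios changed sign. A gene needed only 3 UMIs over both libraries in a setting to be given a value, so some of these rest on few molecules. They were 0.58 for Mlana and 0.19 for Pecam1 with at least 2 of 8 genes, and 0.19 for Heyl with at least 4. Thinning gave -1.18 for Acta2, 0.47 for Csmd1, -0.0115 for Cxcl16, 1.23 for Notum, 0.77 for Pecam1, -0.23 for Stfa1 and -1.97 for Tagln. The muscle list median of -1.97 was then the value of Tagln. Between 3000 and 8000 UMIs they were -0.61 for Acta2, 0.0493 for Bmp6, -0.30 for Ccna2, 2.02 for Csmd1, -2.08 for Dkk2, 0.42 for Pecam1, -0.17 for Slc26a7 and -0.58 for Tagln. The muscle list median of -0.58 was again the value of Tagln. Pecam1 was at 0.11 as a mean over cells, and with a pseudocount of 10 Cxcl1 was at -0.0457 and Stfa1 at -0.12. Without the highest 1% of members Des was at -0.37, Igfbp3 at -0.048 and Tagln at -0.24. The negative sign of Des and Igfbp3 comes from the pseudocount of 1 UMI in libraries of unequal size. Des then had no Con UMI and 0.338 CPM in TP, and the ratio of Igfbp3 without a pseudocount was 1.01. Without the 5 marker lists Acta2 was at -1.12, Bmp6 at 0.0744, Csmd1 at 3.37, Notum at 0.82 and Tagln at -1.25. The cause was not tested. With 1 library for each condition the spread between mice is unknown, and genes near 50 UMIs rest on few molecules.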
